A study of Mus musculus with 24 samples.

Results

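The 8 genes described here are named genes of kidney intercalated cells, 8 of the 55401 genes in the deposited table: Slc26a4, which encodes pendrin, Slc4a9, Hmx2, Insrr, Foxi1, Rhcg, Rhbg and Slc4a1. They were chosen by name and by their measured kidney counts, which were known at 86 and 16.5 weeks when the list was made, so the age difference in kidney is described and not tested. RNA came from kidney, left ventricle of the heart and skeletal muscle of 8 C57BL6/J mice, an inbred strain. Of these mice 4 were 86 weeks old and 4 were 16.5 weeks old, with 2 males and 2 females at each age. The labels give no treatment, transgene or mutation for any mouse, and every mouse gave all 3 tissues, which makes 24 libraries of ribosome-depleted total RNA. The numbers of the mice, used here as replicate numbers, are 14 and 17 (males) and 11 and 12 (females) at 86 weeks, and 19 and 20 (males) and 14 and 15 (females) at 16.5 weeks. The number 14 belongs to different mice at the 2 ages.

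Intercalated cells are scattered among the principal cells of the connecting tubule and collecting duct and move acid and base into or out of the urine. Type A cells secrete acid through an apical proton pump and return bicarbonate to the blood through the anion exchanger AE1, the product of Slc4a1. Type B cells and the related non-A, non-B cells carry pendrin on their apical side, where it exchanges chloride for bicarbonate and so takes part in base secretion and in salt reabsorption. Type B cells carry the transporter AE4, encoded by Slc4a9, on their basolateral side. Foxi1 is a forkhead transcription factor that mice need to form intercalated cells, and Hmx2 is a homeobox transcription factor. Rhcg and Rhbg are ammonia transporters of the distal nephron, and Insrr is a receptor of the insulin receptor family that responds to alkaline pH. Slc4a1 is also expressed in red blood cells.

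Per GENCODE M21 on build GRCm38, Slc26a4 (ENSMUSG00000020651.8) spans chr12:31519827-31559969 on the minus strand with 22 merged exons, and no other annotated gene overlaps it. Foxi1 lies at chr11:34204338-34208089 and Slc4a1 at chr11:102348824-102366203, both on the minus strand and free of overlap. Hmx2 (chr7:131548773-131558014, plus strand) and Insrr (chr3:87796951-87816101, plus strand) lie inside the spans of the opposite-strand genes Fgfr2 and Pear1, and share 0 exon bases with them. Whether strand was used in counting is not given in the sources used here, so intron reads of those hosts could not be set apart. Rhcg (chr7:79593363-79617657, minus strand) holds the predicted gene Gm45170 in an intron, with 0 shared exon bases. Rhbg (chr3:88242874-88254709, minus strand) shares 1190 exon bases with Gm38392 on the same strand, so its counts are uncertain. In kidney Gm38392 had at most 0.819 CPM (counts divided by library size after TMM normalisation) in 7 libraries and 2.91 CPM in 16.5-week replicate 14.

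The RefSeq promoter table, on GRCm38.p6, holds windows of 300 bases (250 before to 50 after the annotated start) for 4 of the 8 genes. These 4 are shown because no window was available for the other genes, and because Foxi1 is itself a DNA-binding factor of these cells. The capitals mark TATAAA, and Hmx2 is shown with the first of its 2 annotated starts. The windows are chr12:31559935-31560234 (minus strand) for Slc26a4, chr7:131548507-131548806 (plus strand) for Hmx2, chr11:34208040-34208339 (minus strand) for Foxi1 and chr7:79617608-79617907 (minus strand) for Rhcg.
Slc26a4: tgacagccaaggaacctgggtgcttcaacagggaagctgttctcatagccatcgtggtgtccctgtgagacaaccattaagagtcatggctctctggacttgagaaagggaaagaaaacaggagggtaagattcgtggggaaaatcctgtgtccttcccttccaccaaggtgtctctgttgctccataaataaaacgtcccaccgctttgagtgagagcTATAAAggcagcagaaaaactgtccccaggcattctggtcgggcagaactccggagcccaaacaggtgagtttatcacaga
Hmx2: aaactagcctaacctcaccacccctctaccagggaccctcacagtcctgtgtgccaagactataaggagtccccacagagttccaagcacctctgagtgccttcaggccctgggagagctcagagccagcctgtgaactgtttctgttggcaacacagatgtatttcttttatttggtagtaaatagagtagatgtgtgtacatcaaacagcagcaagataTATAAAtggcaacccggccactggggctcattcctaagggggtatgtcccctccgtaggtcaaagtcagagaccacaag
Foxi1: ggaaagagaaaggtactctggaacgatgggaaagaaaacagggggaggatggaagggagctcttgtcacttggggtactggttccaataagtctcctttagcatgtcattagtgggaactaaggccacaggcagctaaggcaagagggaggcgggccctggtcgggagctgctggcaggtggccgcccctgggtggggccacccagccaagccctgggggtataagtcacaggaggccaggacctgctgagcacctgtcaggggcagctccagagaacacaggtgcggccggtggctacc
Rhcg: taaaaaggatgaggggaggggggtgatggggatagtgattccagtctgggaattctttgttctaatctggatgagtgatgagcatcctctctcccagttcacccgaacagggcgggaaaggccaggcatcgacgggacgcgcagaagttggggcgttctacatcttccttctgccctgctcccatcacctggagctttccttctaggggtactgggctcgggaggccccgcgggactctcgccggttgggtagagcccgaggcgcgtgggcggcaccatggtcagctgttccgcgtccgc

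Motifs were searched on both strands, and TATAAA was the only motif with a match in these windows, so no motifs overlapped there. TATAAA began at -31 from the start of Slc26a4 and at -29 from the first start of Hmx2, which are positions usual for a TATA box. It occurred in 13.6% of 32851 RefSeq promoter windows of the same length. The forkhead letters TGTTTAC and TGTTTAT, found in 3.65% and 4.6% of all windows, had no match in the windows of the 4 genes. The repeat CCAGNNNNNNCCAG, of the kind that Tfcp2l1 binds, occurred in 3.44% of all windows and in none of these 4 genes. Among 18 other intercalated cell genes, of which 14 had a window, TGTTTAC was present for Atp6v1b1, a proton pump subunit, at -98 from its start, and for P2ry14, a receptor for UDP-glucose. The CCAG repeat was present for Atp6v0a4, another proton pump subunit, at -190 from its start. A match is a description of the letters only. A missing match says only that the letters are not in this window.

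The total count per library was 59.2 to 82.9 M in kidney, 52.6 to 93.8 M in left ventricle and 59.1 to 104 M in skeletal muscle, and 0 pairs of libraries held identical counts. All 8 genes passed the filter on low counts, with 223 to 7411 reads per gene and library in kidney. The labels do not say which part of the kidney was taken. In kidney, mitochondrially encoded genes took 21.9 to 25.1% of counts at 86 weeks and 22.1 to 24.996% at 16.5 weeks, and 86-week replicate 12 had the highest summed level of leukocyte genes (283.7 CPM) and of red blood cell genes (831.9 CPM).

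In kidney, pendrin RNA was lower in every old mouse than in any young mouse. Slc26a4 had 36.3 and 36.8 CPM in males and 41.6 and 37.7 CPM in females at 86 weeks, against 58.2 and 49.7 CPM in males and 86.8 and 75.4 CPM in females at 16.5 weeks. The older kidneys lay close together, whereas young females stood above young males. The mean at 86 weeks was 56.5% of that at 16.5 weeks, a log2 change of -0.80 ± 0.11 (SE, edgeR, adjusted for sex, n = 4 mice per age). In whole tissue, fewer cells of a type and less RNA per cell cannot be told apart.

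Slc4a9 (chr18:36528147-36556273, plus strand, free of overlap), which encodes the basolateral AE4 of the pendrin cells, was likewise lower in every old kidney. It had 36.3 and 40.8 CPM in males and 47.7 and 44.6 CPM in females at 86 weeks, against 59.9 and 51.5 CPM in males and 106 and 78.1 CPM in females at 16.5 weeks. The age groups did not overlap, and 1 young female was the highest of the 8 kidneys. The log2 change was -0.77 ± 0.12. Insrr, the alkali-sensing receptor, had 16.1 and 20.2 CPM in males and 21.4 and 19.8 CPM in females at 86 weeks, against 25.7 and 24.4 CPM in males and 37.7 and 31.6 CPM in females at 16.5 weeks. The ages were again apart, with a log2 change of -0.61 ± 0.11. Pear1, the gene around it on the other strand, had 18.7 to 26.6 CPM at 86 weeks and 15.7 to 22.1 CPM at 16.5 weeks, so its groups overlapped.

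Both transcription factors were lower at 86 weeks. Hmx2 had 3.65 and 3.19 CPM in males and 4.67 and 3.02 CPM in females at 86 weeks, against 6.11 and 6.12 CPM in males and 9.33 and 7.84 CPM in females at 16.5 weeks. Its log2 change of -1.001 ± 0.15 was the most negative of the 8 genes, and the age groups did not overlap. Fgfr2, the gene around Hmx2 on the other strand, had 19.5 to 29.3 CPM at 86 weeks and 20.7 to 30.8 CPM at 16.5 weeks, so its groups overlapped. The part of Fgfr2 intron reads in the Hmx2 counts was not tested. Foxi1 had 8.62 and 6.58 CPM in males and 11.8 and 10.96 CPM in females at 86 weeks, against 12.6 and 10.7 CPM in males and 21.3 and 23.6 CPM in females at 16.5 weeks. The old females overlapped the young males, but within each sex the old mice were below the young ones. The log2 change of Foxi1 was -0.80 ± 0.12.

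The age changes of the ammonia transporters were nominally smaller than those of the genes above, and differences between genes were not tested. Rhcg, the apical and basolateral transporter of both intercalated and principal cells, had 41.1 and 43.2 CPM in males and 56.4 and 55.0 CPM in females at 86 weeks, against 59.4 and 62.4 CPM in males and 78.2 and 79.5 CPM in females at 16.5 weeks. The old females came close to the young males without overlap, and the log2 change was -0.52 ± 0.078. Rhbg, the basolateral transporter, had 8.93 and 15.3 CPM in males and 16.5 and 17.9 CPM in females at 86 weeks, against 14.9 and 16.9 CPM in males and 24.5 and 24.8 CPM in females at 16.5 weeks. Its age groups overlapped, with a log2 change of -0.45 ± 0.14. Gm45170, inside the Rhcg intron, had 5.34 to 6.19 CPM at 86 weeks against 6.67 to 10.7 CPM at 16.5 weeks, and its groups did not overlap either.

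Slc4a1, the type A exchanger, was the member with the smallest age difference. It had 16.6 and 25.3 CPM in males and 24.3 and 36.5 CPM in females at 86 weeks, against 22.1 and 28.7 CPM in males and 30.3 and 32.0 CPM in females at 16.5 weeks. The ages overlapped widely and the highest kidney was an old female, replicate 12. The log2 change was -0.15 ± 0.15, and it rested on single kidneys. Leaving out 1 old kidney at a time gave -0.074 (replicate 11), -0.31 (replicate 12), -0.015 (replicate 14) and -0.26 (replicate 17). Leaving out the young replicate 20 gave -0.053. Because red blood cells also express Slc4a1, 8 of their genes were summed: they came to 387 to 832 CPM at 86 weeks and 374 to 702 CPM at 16.5 weeks, with none at 0 in any library, and 86-week replicate 12 was highest in this sum too. Their part in the Slc4a1 values was not tested.

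**Figure D1:**
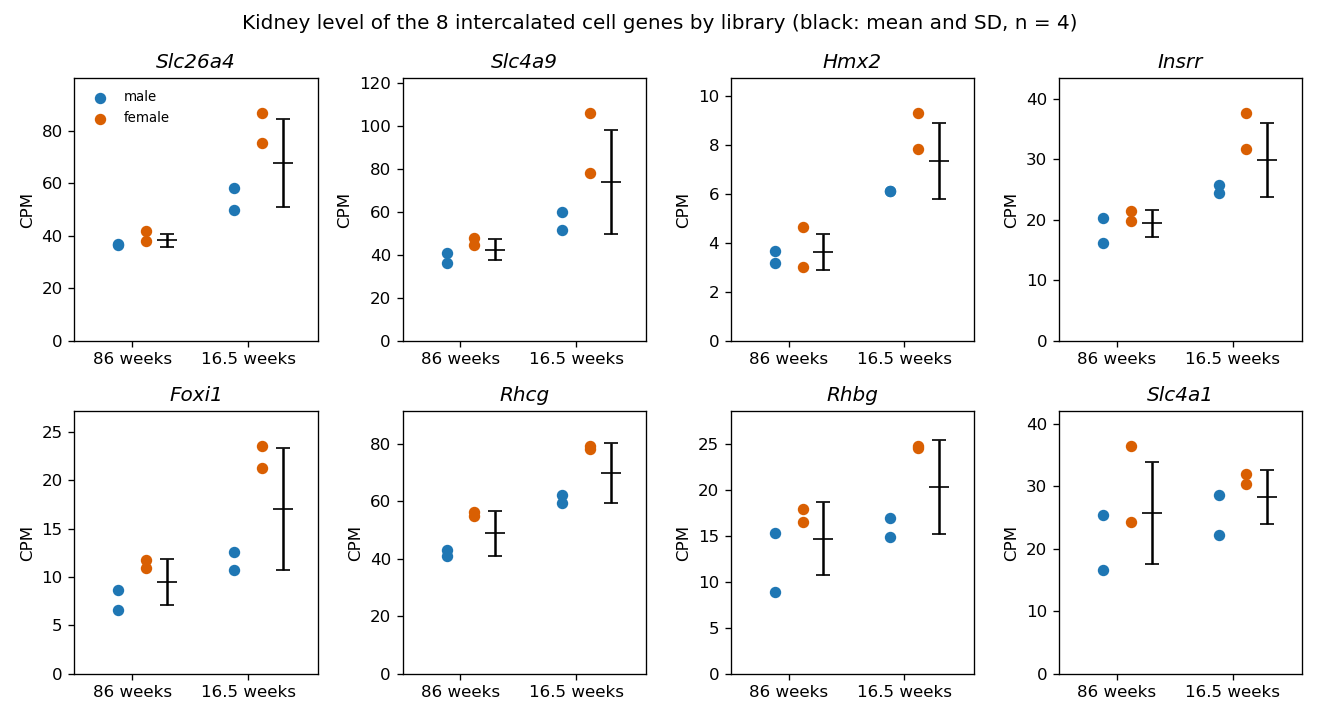
Kidney level in CPM (y axis, from 0) of each gene at 86 and 16.5 weeks, with a point per library, males in blue and females in orange, and the mean and SD of 4 mice in black. Slc26a4, Slc4a9, Hmx2, Insrr and Rhcg had no overlap between the ages, and Slc4a1 overlapped widely.

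Of the 8 genes, 6 had a negative age change with an adjusted p under 0.05 in the edgeR quasi-likelihood fit over all genes, where 0.0538% of the 44572 genes tested did. Rhbg and Slc4a1 did not. In 5 of 8 genes the 86-week libraries all lay below the 16.5-week ones, as they did for 1.5% of genes tested. As the list was made with this contrast in view, nothing is read from either count. The ratio of Slc26a4 to Slc4a1, which does not depend on library size, was 1.03 to 2.18 at 86 weeks and 1.73 to 2.86 at 16.5 weeks. On the log2 scale it was 0.62 ± 0.45 at 86 weeks and 1.24 ± 0.32 at 16.5 weeks (SD, n = 4), and the groups overlapped.

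Sex was not used to choose the genes, but the kidney counts known at that time include the ones compared here. The p-values by sex are therefore given as a description. Each of the 8 genes was nominally lower in male than in female kidneys. Across the 8 genes the log2 change of male over female ran from -0.77 to -0.33 with a median of -0.40, beside a median of -0.018 over all genes tested. The other gene lists described below also had negative medians by sex, from -0.61 (distal convoluted and connecting tubule) to -0.16 (proximal tubule). The median was -0.58 for inner medulla, -0.54 for red blood cell and -0.40 for thick ascending limb genes, so a lower level in males was not particular to the 8 genes. Foxi1 averaged 9.62 ± 2.59 CPM in males and 16.9 ± 6.46 CPM in females (SD, n = 4 each, both ages), a log2 change of -0.77 ± 0.12 (adjusted p = 0.000858, edgeR with Benjamini-Hochberg adjustment). It was lower in both males than in both females at each age. Rhcg averaged 51.5 ± 10.9 CPM in males and 67.3 ± 13.4 CPM in females, with a log2 change of -0.39 ± 0.078 (edgeR adjusted p = 0.00532). Rhbg averaged 14.01 ± 3.50 CPM in males and 21.0 ± 4.33 CPM in females, with a log2 change of -0.57 ± 0.14 (edgeR adjusted p = 0.017). Slc4a9 averaged 47.1 ± 10.6 CPM in males and 69.2 ± 29.0 CPM in females, with a log2 change of -0.49 ± 0.12 (edgeR adjusted p = 0.0209).

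These 4 of 8 genes passed the test in the lower direction, where 3.81% of the genes tested did. With a stricter filter, 1 CPM in 4 libraries, 2047 of 20531 genes tested and 6 of the 8 passed in that direction. The shares by sex given beside the gene lists below are those of the less strict filter. In the fit reported here the remaining genes did not pass. Slc26a4 averaged 45.3 ± 10.6 CPM in males and 60.4 ± 24.4 CPM in females, with a log2 change of -0.35 ± 0.11 (edgeR adjusted p = 0.0681). The log2 changes of Slc4a1 (-0.42 ± 0.15), Hmx2 (-0.33 ± 0.15) and Insrr (-0.33 ± 0.11) had edgeR adjusted p of 0.132, 0.275 and 0.0862, and that of Slc4a1 was -0.26 without 86-week replicate 12. Both males lay below both females in 5 of 8 genes at 86 weeks, where 20.8% of all genes tested did, and in 8 of 8 at 16.5 weeks, where 22.7% did. Over both ages together the sexes overlapped in 8 of 8, where 6.05% of genes tested had all males below all females.

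The log2 change by sex was negative in 8 of 8 genes under each setting run, but the calls depended on the setting. Without age in the fit 0 of 8 passed (edgeR adjusted p of 0.062 for Foxi1), without 16.5-week replicate 19 2 passed, and without 86-week replicate 12 6 passed. The 8 red blood cell genes also moved with sex in kidney, with summed levels of 374 to 477 CPM in males and 508 to 832 CPM in females and 5 of 8 called lower in males, where 3.81% of genes tested were. That count was 0 of 8 without 16.5-week replicate 14 or 19 or without 86-week replicate 12 or 14. The part of red blood cells in the sex difference of Slc4a1 was not tested.

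The age difference was nominally smaller in males than in females for 6 of the 8 genes, those of pendrin and AE4 among them. The log2 change of 86 over 16.5 weeks in Slc26a4 was -0.56 ± 0.13 in males and -1.03 ± 0.13 in females, and in Slc4a9 it was -0.53 ± 0.15 in males and -0.998 ± 0.16 in females. Foxi1 had -0.62 ± 0.16 in males and -0.98 ± 0.16 in females, and Hmx2 had -0.84 ± 0.22 in males and -1.16 ± 0.22 in females. Insrr had -0.47 ± 0.15 in males and -0.75 ± 0.15 in females, and Rhbg had -0.39 ± 0.20 in males and -0.52 ± 0.20 in females. The remaining 2 went the other way. Rhcg had -0.53 ± 0.12 in males and -0.50 ± 0.12 in females, and Slc4a1 had -0.27 ± 0.21 in males and -0.036 ± 0.21 in females. The test of the difference, an age by sex term in edgeR, called 0 of 8 genes, where it called 0.0247% of the genes tested, and DESeq2 also called 0 of 8. At an unadjusted p under 0.05 the edgeR term took 1 of the 8, Slc26a4, with a difference of 0.47 ± 0.19 (unadjusted p = 0.025, adjusted p = 1), where 4.11% of all genes tested had such an unadjusted p. The term rests on 2 mice per age and sex.

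The ratio of Slc26a4 to Slc4a1 was tested by sex as 1 value per library. On the log2 scale it was 0.96 ± 0.37 in males and 0.89 ± 0.64 in females (SD, n = 4 each), a difference of 0.069 (exact two-sided permutation test, p = 0.886, smallest possible p = 0.0286). Age was left out of this test, although the ratio was nominally lower at 86 weeks. At 86 weeks the log2 ratio was 1.13 and 0.54 in males and 0.78 and 0.046 in females. At 16.5 weeks it was 1.39 and 0.79 in males and 1.52 and 1.24 in females. A difference between the sexes was not detectable in this test, and a difference within each age was not tested.

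The 18 other intercalated cell genes (subunits of the proton pump, the transcription factor Tfcp2l1, carbonic anhydrase 2 and others) were on the whole nominally lower in old kidneys. This list and the other gene lists were also chosen with earlier results of these data known, so their counts and p-values are given as a description. Of the 18 genes 0 were called higher and 1 lower at 86 weeks, where 0.112% of all genes tested passed in either direction. The log2 change was negative in 16 of 18, with a median of -0.18 against 0.023 over all genes tested. Atp6v1c2, a proton pump subunit, had 11.4 ± 1.65 CPM at 86 weeks, against 17.3 ± 2.80 CPM at 16.5 weeks (SD, n = 4 each). Its log2 change was -0.60 ± 0.089 (edgeR adjusted p = 0.0272). DESeq2 called 4 of the 18, all lower, where it called 238 of 44572 genes fitted, 121 of them lower. DESeq2 can leave genes with low counts without an adjusted p, and any such genes are included in the 44572. At an unadjusted p under 0.05 there were 7 of 18, all lower, where 7.96% of all genes tested passed in either direction. The edgeR call was 0 of 18 without 16.5-week replicate 14, 15 or 19 or without 86-week replicate 12 or 14, and 2 of 18 without 16.5-week replicate 20.

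By sex 10 of these 18 genes were lower in males and 0 higher, where 7.58% of all genes tested passed in either direction. The median log2 change was -0.38 against -0.018 over all genes tested. The 3 with the smallest p were Slc4a8, Atp6v0d2 and Hepacam2. Slc4a8, a sodium-driven anion exchanger, averaged 13.2 ± 1.35 CPM in males and 18.2 ± 1.10 CPM in females (log2 change -0.46 ± 0.099, edgeR adjusted p = 0.00879). Atp6v0d2, a proton pump subunit, averaged 14.9 ± 2.97 CPM in males and 21.7 ± 6.95 CPM in females (log2 change -0.51 ± 0.11, edgeR adjusted p = 0.01). Hepacam2, an adhesion protein, averaged 7.34 ± 1.13 CPM in males and 10.2 ± 2.27 CPM in females (log2 change -0.47 ± 0.11, edgeR adjusted p = 0.0122). The count was 3 of 18 without 16.5-week replicate 14 or 19, 4 without 86-week replicate 14, 5 without 16.5-week replicate 15 or 20, 6 without 86-week replicate 12, 2 without age in the fit and 3 with RLE size factors, another scaling of the libraries.

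Of 6 genes known to regulate pendrin or its cells, 0 were called for age. The smallest p belonged to Sgk1, a kinase induced by aldosterone, with 40.3 ± 11.1 CPM at 86 weeks and 68.0 ± 51.6 CPM at 16.5 weeks (edgeR adjusted p = 0.634), and to Nedd4l, a ubiquitin ligase, with 154 ± 14.4 CPM at 86 weeks and 168 ± 17.2 CPM at 16.5 weeks (edgeR adjusted p = 0.754). None of the 6 had an unadjusted p under 0.05, and DESeq2 called 0. By sex 2 of 6 were lower in males, where 3.81% of genes tested were. Sgk1 averaged 32.7 ± 4.73 CPM in males and 75.5 ± 45.3 CPM in females (edgeR adjusted p = 0.015), and Nr3c2, the mineralocorticoid receptor, 29.5 ± 0.468 CPM in males and 38.3 ± 5.07 CPM in females (edgeR adjusted p = 0.0209). Without 16.5-week replicate 19 or 20 the count by sex was 0 of 6, and it was 1 without 16.5-week replicate 14 and 1 with RLE size factors or DESeq2.

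Principal cells share the collecting duct with intercalated cells. Of 10 of their genes 0 were called for age (median log2 change -0.26). An unadjusted p under 0.05 was found in 7, of which 6 were lower (7.96% of all genes tested had one). DESeq2 called 2 of the 10, where it called 238 of 44572 genes fitted. Hsd11b2, which inactivates glucocorticoid, had 37.9 ± 5.95 CPM at 86 weeks and 51.5 ± 10.5 CPM at 16.5 weeks (edgeR adjusted p = 0.183). Kcne1, a potassium channel subunit, had 5.61 ± 0.450 CPM at 86 weeks and 7.82 ± 0.970 CPM at 16.5 weeks (edgeR adjusted p = 0.221). By sex 3 of 10 were lower in males, where 3.81% of genes tested were. Among them Hsd11b2 had 38.5 ± 6.66 CPM in males and 50.9 ± 10.96 CPM in females (edgeR adjusted p = 0.0255). The vasopressin receptor Avpr2 had 2.86 ± 1.05 CPM in males and 5.10 ± 0.931 CPM in females (edgeR adjusted p = 0.0279). The water channel Aqp3 was higher, with 49.3 ± 6.11 CPM in males and 40.1 ± 3.48 CPM in females (edgeR adjusted p = 0.0365). The calls by sex were 0 without 86-week replicate 14, 1 without 16.5-week replicate 14, 15 or 19, 2 without 86-week replicate 11, 2 under DESeq2 or with no low-count filter, and 1 with RLE size factors or without age in the fit.

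The distal convoluted and connecting tubule, just upstream, had 0 of 8 genes called for age (median log2 change -0.37). An unadjusted p under 0.05 was found in 6, all lower, where 7.96% of all genes tested had one. DESeq2 called 2 of the 8, where it called 238 of 44572 genes fitted. Klk1, tissue kallikrein, had 484 ± 107 CPM at 86 weeks and 672 ± 200.2 CPM at 16.5 weeks (edgeR adjusted p = 0.195). Trpv5, an apical calcium channel, had 12.9 ± 2.29 CPM at 86 weeks and 17.8 ± 5.12 CPM at 16.5 weeks (edgeR adjusted p = 0.2). By sex 7 of 8 were lower in males (median log2 change -0.61), where 3.81% of genes tested were. Leaving out single kidneys gave 6 to 8. The sodium-calcium exchanger Slc8a1 averaged 358 ± 41.4 CPM in males and 643 ± 142 CPM in females (edgeR adjusted p = 0.000604). The calcium-binding protein Calb1 averaged 191 ± 20.8 CPM in males and 347 ± 97.6 CPM in females (edgeR adjusted p = 0.00129), and Klk1 averaged 454 ± 75.0 CPM in males and 702 ± 169 CPM in females (edgeR adjusted p = 0.00213).

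In other parts of the kidney, 0 of 7 thick ascending limb genes, 0 of 8 proximal tubule genes and 0 of 5 inner medulla genes were called for age. Their median log2 changes were -0.13, -0.091 and 0.055. At an unadjusted p under 0.05 these lists had 1, 2 and 0 genes, where 7.96% of all genes tested had one. DESeq2 called 1, 0 and 0, where it called 238 of 44572 genes fitted. The smallest p for age belonged to Egf (log2 change -0.31 ± 0.097) and the tight junction gene Cldn10 (-0.25 ± 0.13) in the thick ascending limb, with edgeR adjusted p of 0.38 and 0.676. In the proximal tubule they were Slc7a13 (-0.34 ± 0.12) and Slc22a6 (-0.26 ± 0.0997), with edgeR adjusted p of 0.476 and 0.521. In the inner medulla they were Slc5a3 (-0.32 ± 0.16) and Akr1b3 (0.22 ± 0.18), with edgeR adjusted p of 0.662 and 0.82. By sex 1 of 7 thick ascending limb genes was lower in males, where 3.81% of genes tested were. It was the growth factor Egf, with 2055 ± 281 CPM in males and 2850 ± 344 CPM in females (edgeR adjusted p = 0.00648). In the proximal tubule 3 of 8 genes were higher and 2 lower in males, where 7.58% of all genes tested passed in either direction. Slc7a13, an aspartate and glutamate transporter, averaged 629 ± 64.6 CPM in males and 1.49 ± 0.410 CPM in females (edgeR adjusted p = 8.01e-14). Slc22a6, an organic anion transporter, averaged 499 ± 65.6 CPM in males and 175 ± 24.6 CPM in females (edgeR adjusted p = 2.11e-07). Slc34a1, a phosphate transporter, averaged 3037 ± 310 CPM in males and 1902 ± 387 CPM in females (edgeR adjusted p = 0.00477). In the inner medulla list 2 of 5 were lower in males, where 3.81% of genes tested were. Of these Slc4a11 had 7.33 ± 2.03 CPM in males and 13.8 ± 3.18 CPM in females (edgeR adjusted p = 0.00887). The inositol transporter Slc5a3 had 330 ± 102 CPM in males and 487 ± 97.4 CPM in females (edgeR adjusted p = 0.0445). Leaving out single kidneys gave 1 to 3 calls by sex in the thick ascending limb (3 without 16.5-week replicate 20, 2 without 16.5-week replicate 14 or 86-week replicate 11) and 3 to 6 in the proximal tubule (3 without any 1 of the 4 younger mice, and 3 with RLE size factors). In the inner medulla it gave 1 to 4 (4 without 16.5-week replicate 20, 1 without 16.5-week replicate 15 or 19 or 86-week replicate 12 or 17).

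Among cells that are not of the nephron, the 10 leukocyte genes all had positive age changes, with a median log2 change of 0.63, and 0 were called. At an unadjusted p under 0.05 there were 8, all higher, where 7.96% of all genes tested passed in either direction. DESeq2 called 2 of the 10, where it called 238 of 44572 genes fitted. Without 16.5-week replicate 20 or 86-week replicate 11 edgeR called 1. Their summed level was 134 (replicate 14), 140 (replicate 17), 152 (replicate 11) and 284 CPM (replicate 12) at 86 weeks, and 110 to 129 CPM at 16.5 weeks. The lowest old kidney was thus only just above the highest young one, and the top of the range was a single kidney. None of these genes was at 0 in any library. C1qa, a complement subunit of macrophages, had 13.5 ± 4.82 CPM at 86 weeks and 7.40 ± 1.74 CPM at 16.5 weeks (edgeR adjusted p = 0.0989), and the macrophage receptor Mrc1 had 13.95 ± 4.89 CPM at 86 weeks and 8.24 ± 1.54 CPM at 16.5 weeks (edgeR adjusted p = 0.163). The part of these cells in the lower level of the 8 genes was not tested. By sex 0 of 10 leukocyte genes were called, with 6 at an unadjusted p under 0.05 (1 higher and 5 lower, where 17.1% of all genes tested passed) and 0 called by DESeq2. Those with the smallest p were the macrophage genes Csf1r and Adgre1, with edgeR adjusted p of 0.108 and 0.139, and without 86-week replicate 11 edgeR called 2.

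Red blood cell genes had 0 of 8 called for age, 0 at an unadjusted p under 0.05, 0 by DESeq2, and a median log2 change of 0.062. By sex 5 of 8 were lower in males, where 3.81% of genes tested were. The beta globin genes Hbb-bt and Hbb-bs, which are near-identical copies and so uncertain as single genes, averaged 93.9 ± 7.66 and 156 ± 16.5 CPM in males and 149 ± 42.2 and 243 ± 63.0 CPM in females (edgeR adjusted p of 0.0171 and 0.0175). Alas2, the first enzyme of haem synthesis in red cells, averaged 8.02 ± 1.13 CPM in males and 12.8 ± 3.78 CPM in females (edgeR adjusted p = 0.0291). Besides the 4 mice named above, leaving out 86-week replicate 17 lowered this count, to 2, and RLE size factors gave 3.

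**Figure D2:**
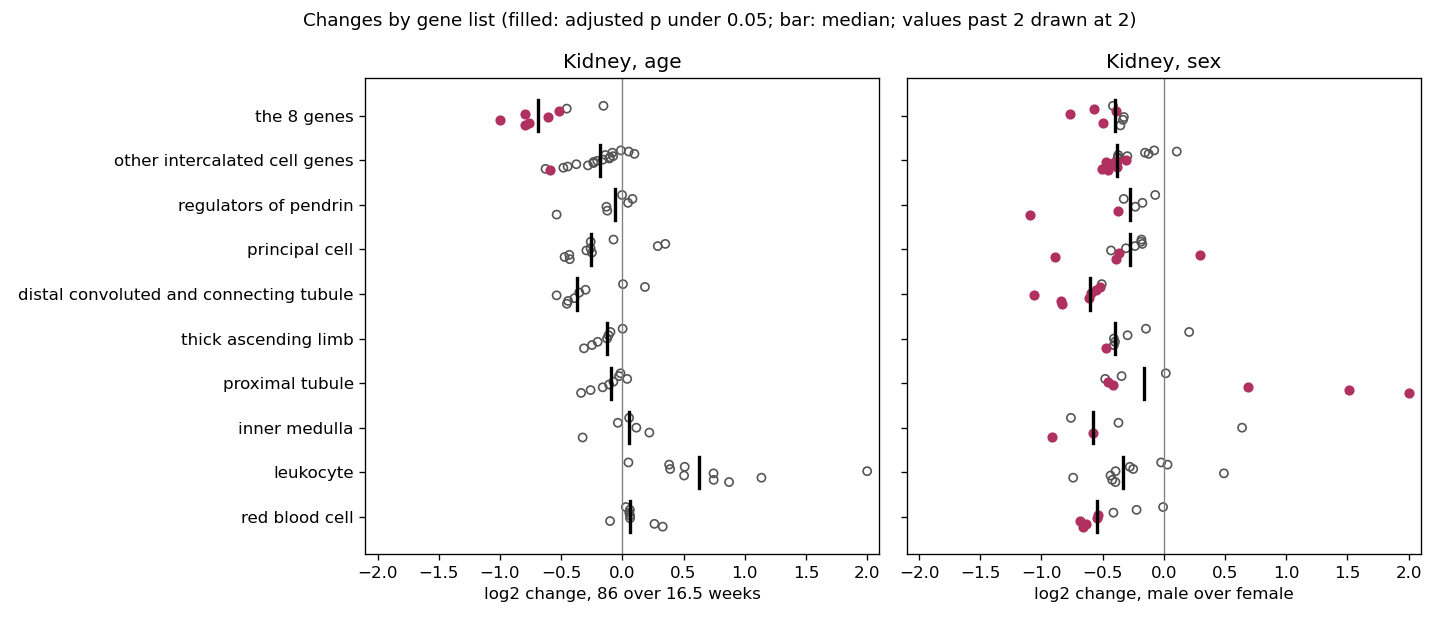
Kidney log2 change (x axis) of each gene by list (rows), for 86 over 16.5 weeks on the left and for male over female on the right, with filled points for an adjusted p under 0.05 and a bar for the median. The bar of the 8 genes lies at -0.69 for age, which chose them, and at -0.40 for sex, and that of the leukocyte genes lies at 0.63 for age.

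Levels were compared between genes per exon kilobase. In the 8 kidneys Rhcg was the highest with 26.6 ± 6.32 CPM per kilobase, followed by Slc26a4 with 16.99 ± 6.19 (SD, n = 8). Slc4a9 (9.08 ± 3.65) and Rhbg (9.03 ± 2.68) did not differ beyond their spread, nor did Foxi1 (5.63 ± 2.54) and Slc4a1 (5.52 ± 1.27). Slc4a1 and Insrr (4.31 ± 1.23) had means closer than their SD, with Slc4a1 above Insrr in 7 of 8 kidneys. Hmx2 was the lowest with 1.71 ± 0.710 CPM per kilobase. Rhcg exceeded Slc26a4, Slc26a4 exceeded Slc4a9, Rhbg exceeded Foxi1 and Insrr exceeded Hmx2 in 8 of 8 kidneys. Slc4a9 exceeded Rhbg in 3 of 8 and Foxi1 exceeded Slc4a1 in 5 of 8.

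In left ventricle and skeletal muscle the 8 genes were low. Slc26a4 had 52.8 ± 19.2 CPM in kidney, 1.04 ± 0.196 CPM in left ventricle and 0.920 ± 0.249 CPM in skeletal muscle (SD, n = 8 each). These CPM were normalised within each tissue, so they are not on 1 scale across tissues and differ from the folds given below. As a floor, the 95th percentile of 1111 olfactory receptor genes was taken, which was 0.300 CPM per exon kilobase in kidney, 0.292 in left ventricle and 0.274 in skeletal muscle. In kidney 8 of 8 genes were above it. In left ventricle the 8 genes lay between 0.258 and 0.748 CPM per kilobase and in skeletal muscle between 0.264 and 0.584, with 7 of 8 above the floor in each and Hmx2 below it in both.

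As the genes were named for kidney cells and chosen with their kidney counts known, their differences between tissues are also given as a description. In the edgeR fit over 24 libraries, with age and sex in it, 8 of 8 genes were called higher in kidney than in left ventricle and 8 of 8 higher than in skeletal muscle, where 19.9% and 22.8% of the genes tested were. The median log2 difference over all genes tested was -0.098 against left ventricle and -0.24 against skeletal muscle. Slc26a4 was highest in these folds, at 40.5-fold over left ventricle (log2 5.34 ± 0.18) and 36.9-fold over skeletal muscle (log2 5.21 ± 0.18). Rhcg was 35.6-fold and Rhbg 18.0-fold over left ventricle, and 31.9-fold and 13.5-fold over skeletal muscle. Slc4a9 was 14.5-fold and Foxi1 10.3-fold over left ventricle, and 11.4-fold and 8.46-fold over skeletal muscle. Insrr and Slc4a1 were 6.56-fold and 6.08-fold over left ventricle, and 5.94-fold and 6.20-fold over skeletal muscle. For Hmx2 no fold is given, since it was below the floor in both of these tissues, and for the others the folds are against levels close to the floor.

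**Figure D3:**
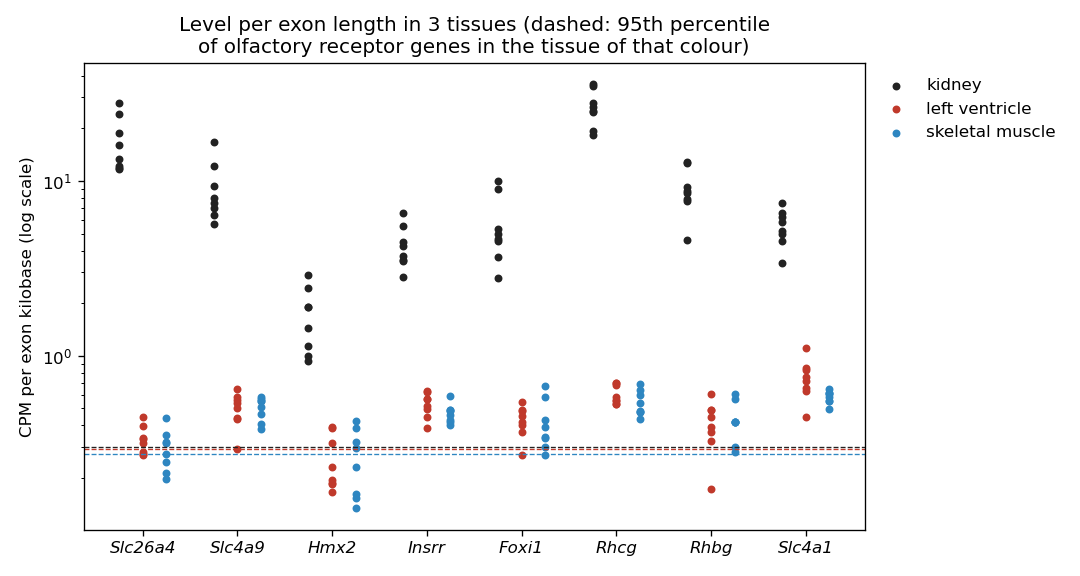
Level of each gene in CPM per exon kilobase (y axis, log scale) in the 8 libraries of kidney, left ventricle and skeletal muscle, with the 95th percentile of olfactory receptor genes of each tissue as a dashed line. CPM were normalised within each tissue. Kidney libraries sit above the floor of 0.300 for every gene, and the other tissues sit close to their floors of 0.292 and 0.274.

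Outside the kidney 0 of 8 genes were called for age by edgeR, in left ventricle (0.0741% of genes tested were called) and in skeletal muscle (0.0183%). At an unadjusted p under 0.05 there were 0 in either tissue, where 3.37% of genes tested in left ventricle and 5.51% in skeletal muscle passed, and DESeq2 called 0 in each. In left ventricle the log2 changes ran from -0.34 ± 0.25 (Foxi1) to 0.12 ± 0.18 (Insrr), and in skeletal muscle from -0.15 ± 0.37 (Hmx2) to 0.24 ± 0.25 (Rhbg). At levels this close to the floor a change of the size seen in kidney may not be detectable. The difference of these age changes from those in kidney was not tested.

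**Figure D4:**
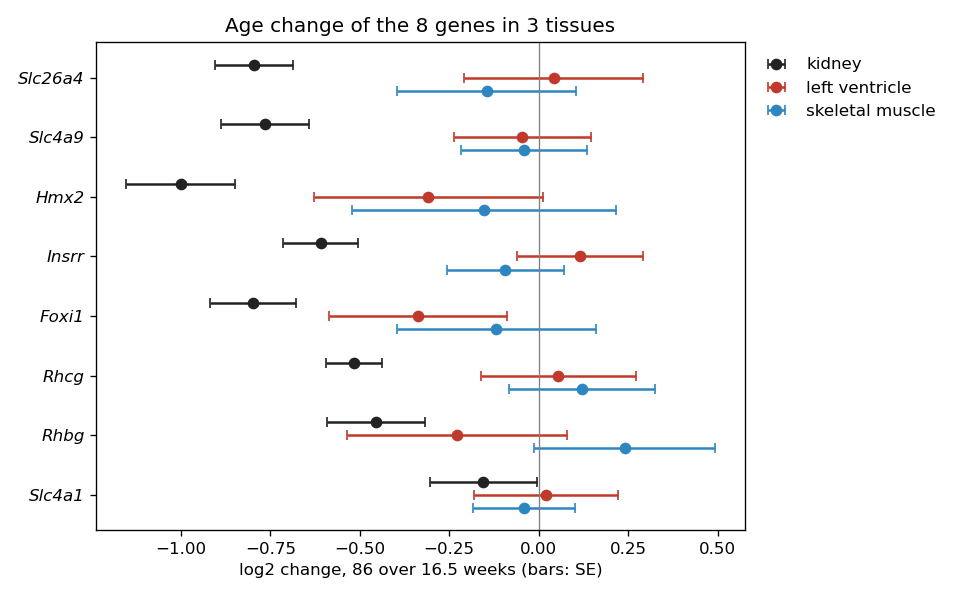
Log2 change of 86 over 16.5 weeks (x axis) of each gene, with SE as bars, in kidney, left ventricle and skeletal muscle. The kidney points lie between -1.001 (Hmx2) and -0.15 (Slc4a1), and those of the other tissues between -0.34 and 0.24.

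The correlations between the genes across the 8 kidneys are a description, since the genes were chosen with their difference between the ages known. Pairs without Slc4a1 had a Pearson correlation of log2 CPM of 0.63 to 0.98 with a median of 0.91 (21 pairs), and pairs with Slc4a1 had 0.22 to 0.85 with a median of 0.47 (7 pairs). These points share their libraries and the differences of age and sex. Once the means of age and sex were removed, pairs without Slc4a1 ran from -0.69 to 0.91 with a median of 0.21, and pairs with it from -0.79 to 0.77 with a median of -0.26. Of 16238 other genes with a kidney mean of at least 1 CPM, those with the highest correlation with Slc26a4 were Mbd5 (0.97), Atm (0.95), Ptp4a1 (0.95), Pcmtd2 (0.95), Atp6v1c2 (0.95) and Zfp871 (0.95). With the mean z-score of the 8 genes the highest were Atp6v1c2 (0.99), Atp6v0d2 (0.99), H4c8 (0.98), Eya1 (0.97), Syn2 (0.97) and Dsc2 (0.96). The 2 proton pump subunits at the top of this second group were also on the list of other intercalated cell genes.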

How the data were processed

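The deposited table holds whole-number gene counts for 55401 genes in 24 libraries of ribosome-depleted total RNA. The submitters' processing notes name STAR 2.7.6a, StringTie 2.1.1 and GRCm38.p6, and the annotation, the strand setting and how the authors derived counts are not given in the sources used here. All columns were mapped to samples by name (0 left unused), and 54349 gene IDs matched GENCODE M21, which gave coordinates and exon lengths.

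Counts were tested with edgeR 4.0.16 (R 4.3.3) quasi-likelihood tests after TMM normalisation and filterByExpr, with sex and age as terms within each tissue, and with tissue, sex and age over all 24 libraries for differences between tissues. Two-sided p-values were adjusted (Benjamini-Hochberg) over all genes tested, with a threshold of 0.05. Alternatives were DESeq2 1.42.0, RLE size factors, no low-count filter, 1 CPM in 4 libraries, no covariate, each mouse left out and the mouse as a replicate block. The tests were tested on simulated data.

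The 8 genes and the gene lists were chosen with earlier results of these data known. From each list up to 4 genes called for age and 3 called for sex were named, otherwise the 2 with the smallest p, and the 6 genes most like Slc26a4 or the mean of the 8. Some genes that this rule names are not reported here. Pear1, Gm45170, Gm38392 and Fgfr2 were named for their overlap with members. P2ry14, Atp6v1b1 and Atp6v0a4 were named for a motif match, after it was seen. Libraries of different tissues with the same number and the same age come from the same mouse, and their residuals correlated at -0.19 to 0.38 over 24 pairs, with 6 above 0.1.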

Additional observations from a re-analysis of the deposited data

Results flagged for a closer look

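Within groups of 4 libraries, a sample far from the other 3 was found in 4 of 48 groups tested, by Dixon's test, where chance gives about 1 in 20. All 4 were in the tissues where the genes are near the floor. Hmx2 had 1.25 CPM in left ventricle 86-week replicate 17, against 0.538 to 0.623 CPM in the others. Slc4a9 had 1.88 CPM in left ventricle 86-week replicate 14, against 3.46 to 3.71 CPM in the others. Rhbg had 1.18 CPM in skeletal muscle 86-week replicate 17, against 0.809 to 0.812 CPM in the others. Rhcg had 1.43 CPM in skeletal muscle 16.5-week replicate 15, against 1.06 to 1.08 CPM in the others.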

How the results depend on the processing

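The kidney age change was negative in 8 of 8 genes under every alternative run, and the number called was 6 as reported, 5 with RLE size factors, 6 with DESeq2, 6 with 1 CPM in 4 libraries, 0 with no low-count filter, 0 without sex in the fit, and 1 to 4 with a mouse left out (1 without 16.5-week replicate 14, 15 or 19). Counts over all genes moved as follows. For kidney age 50 genes were called, with 238 under DESeq2, 1 with no low-count filter, 0 without a covariate and 19 to 69 with a mouse left out. For the age by sex term 11 were called, with 34 under DESeq2, 1 with no filter and 6 to 33 with a mouse left out. For left ventricle age 33 were called, with 70 under DESeq2, 18 with no filter and 24 to 117 with a mouse left out. For skeletal muscle age 8 were called, with 90 under DESeq2, 0 with no filter, 1 without a covariate and 1 to 43 with a mouse left out. For kidney sex 3380 were called and 2487 to 3841 with a mouse left out. Kidney against left ventricle gave 15843 calls, 14384 to 16021 with a mouse left out, and kidney against skeletal muscle 20661 calls, 18253 to 20513 with a mouse left out. The mouse as a replicate block gave 15546 and 20263, and changed no call among the 8 genes. The causes of these shifts were not tested.

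Directions changed only for values that passed no test. The age by sex term of Rhcg was 0.000720 with RLE size factors and 0.000749 under DESeq2. With a mouse left out, that term ran from -0.067 to 0.0064 for Rhcg, from -0.32 to 0.45 for Rhbg and from -0.58 to 0.087 for Slc4a1. The left ventricle age change ran from -0.089 to 0.23 for Slc26a4, -0.27 to 0.12 for Slc4a9, -0.62 to 0.018 for Hmx2, -0.026 to 0.25 for Insrr, -0.034 to 0.16 for Rhcg, -0.45 to 0.0059 for Rhbg and -0.18 to 0.19 for Slc4a1. That in skeletal muscle ran from -0.40 to 0.011 for Slc26a4, -0.18 to 0.090 for Slc4a9, -0.49 to 0.21 for Hmx2, -0.19 to 0.030 for Insrr, -0.41 to 0.0083 for Foxi1, -0.036 to 0.23 for Rhcg and -0.10 to 0.0057 for Slc4a1. The log2 ratio of Slc26a4 to Slc4a1 by sex ran from -0.21 to 0.28 with a mouse left out. Between ages no paired analysis was possible because the only shared number, 14, belongs to different mice.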
